A study of Mus musculus with 11 samples.

Results

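The oxidative phosphorylation genes of the mouse were followed in healthy and fibrotic kidney and lung. They were chosen by name, as the genes whose symbol in the platform annotation marks a subunit of respiratory complexes I to V, cytochrome c, or a protein named after such a subunit, and that had a probe above background, at a detection p-value under 0.05, on 2 arrays or more. Of 89 genes with such a symbol 84 met the detection rule, among 12865 genes tested. They comprised 33 subunits of complex I, 7 assembly factors of complex I, 3 subunits of complex II, 8 of complex III, cytochrome c itself (Cycs), 15 genes of complex IV, 16 of complex V and the pseudogene-annotated Ndufs5-ps. The probes of Cox7b2, Cox8c, Ndufaf6, Ndufs1 and Sdha were above background on 0 arrays. Just inside the rule stood Uqcrfs1, above background on 2 arrays, both of fibrotic lungs, followed by Cox4i2 on 7, and 79 of the 84 genes were above background on all 11 arrays.

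RNA of whole kidneys and lungs was hybridised to 11 Illumina bead arrays, and the labels call every mouse an adult female of the BALB/C strain. The groups were kidneys made fibrotic by obstruction of 1 ureter (n = 2), healthy kidneys (n = 3), lungs made fibrotic by bleomycin instilled into the trachea (n = 3) and healthy lungs (n = 3). The labels give neither the time after obstruction or bleomycin nor a sham operation or vehicle. The design text counts each array of a group as a separate mouse, and the titles name the same 3 mice for the healthy kidneys and the healthy lungs.

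Oxidative phosphorylation takes place in the inner mitochondrial membrane. Complex I (NADH dehydrogenase) and complex II (succinate dehydrogenase, also an enzyme of the citric acid cycle) pass electrons to ubiquinone, complex III passes them on to cytochrome c, and complex IV (cytochrome c oxidase) reduces oxygen. Complexes I, III and IV pump protons, and complex V (ATP synthase) uses their return to make ATP. Most subunits are encoded in the nucleus and a few in mitochondrial DNA. The kidney, above all the proximal tubule, relies on this pathway for the reabsorption of solutes. Several subunits of complex IV exist as isoforms typical of heart and skeletal muscle, lung or testis.

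The promoters of 4 of these genes are printed because NRF1 and GABPA are factors known to act on promoters of respiratory genes. The genes were picked after their values were seen: Cycs and Sdhd for their fall in obstructed kidney, Cox6a1 for its opposite changes in kidney and lung, and Cox8b as a muscle isoform. Each is the 250 bases before the annotated gene start (RefSeq, GRCm38.p6), 5′ to 3′ on the strand of the gene, with matches to the searched letters in capitals.
Cycs, chr6:50566570-50566819, minus strand: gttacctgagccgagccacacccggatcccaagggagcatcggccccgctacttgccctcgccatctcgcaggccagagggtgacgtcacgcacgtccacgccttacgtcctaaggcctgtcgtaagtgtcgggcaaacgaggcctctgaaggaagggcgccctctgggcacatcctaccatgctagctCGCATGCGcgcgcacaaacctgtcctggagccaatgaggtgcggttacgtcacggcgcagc
Sdhd, chr9:50603850-50604099, minus strand: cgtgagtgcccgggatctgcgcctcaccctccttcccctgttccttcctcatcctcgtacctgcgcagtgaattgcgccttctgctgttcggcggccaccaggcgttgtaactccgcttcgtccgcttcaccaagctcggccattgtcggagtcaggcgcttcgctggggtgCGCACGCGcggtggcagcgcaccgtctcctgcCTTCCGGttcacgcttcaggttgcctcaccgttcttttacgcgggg
Cox6a1, chr5:115348959-115349208, minus strand: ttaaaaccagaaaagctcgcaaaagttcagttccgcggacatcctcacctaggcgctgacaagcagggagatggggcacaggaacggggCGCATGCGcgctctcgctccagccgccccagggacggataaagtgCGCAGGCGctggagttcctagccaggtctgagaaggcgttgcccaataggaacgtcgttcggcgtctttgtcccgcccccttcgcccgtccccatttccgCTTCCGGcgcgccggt
Cox8b, chr7:140900447-140900696, minus strand: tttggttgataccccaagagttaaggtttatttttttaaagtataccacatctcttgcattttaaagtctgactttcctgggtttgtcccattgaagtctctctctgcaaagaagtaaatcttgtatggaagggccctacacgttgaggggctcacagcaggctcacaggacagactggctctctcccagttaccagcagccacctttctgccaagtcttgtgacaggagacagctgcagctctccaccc
The letters searched on both strands were CGCANGCG, a core of the NRF1 site, CCGGAAG, a GABPA site, and TCAAGGTCA, an ESRRA site. CGCATGCG reads the same on both strands. In Cycs it lay 61 bases before the gene start. In Sdhd, CGCACGCG lay 78 bases and CTTCCGG, the GABPA letters on the opposite strand, 46 bases before the start. In Cox6a1, CGCATGCG lay 161, CGCAGGCG 116 and CTTCCGG 16 bases before the start, and in Cox8b none of the letters was found in this window. Of the 84 genes, 71 had an entry in the RefSeq promoter table, with 76 windows. The NRF1 letters were found in 27.6% of these windows, against 11.8% of the 13178 windows of tested genes and 6.76% of all 32851 windows. The GABPA letters were in 18.4%, against 11.6% and 6.91%, and the ESRRA letters in 1 window, that of Atp5g3. A match describes the letters and does not show a bound site.

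Levels are log2 values after background correction and quantile normalisation, each from the brightest kept probe of a gene. Changes are differences of group means with the standard error (SE) of a linear model over all 11 arrays, and "past the threshold" means a limma p-value under 0.05 after Benjamini-Hochberg adjustment over the 12865 genes. Between 9591 and 11462 of these genes, and between 81 and 84 of the oxidative phosphorylation genes, were above background on each array. The correlation of 2 arrays within a group, over all genes, was 0.935 to 0.988.

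Several arrays stood apart. The labelled sex did not match sex-linked transcripts on most arrays: Eif2s3y, on the Y chromosome, was at 9.06 to 9.78 in the 3 healthy kidneys, the 3 healthy lungs and bleomycin lungs 1 and 2, but at 4.42 and 4.40 in the obstructed kidneys and 4.44 in bleomycin lung 3. Xist, made from the inactive X chromosome, was at 10.83 and 10.56 in the obstructed kidneys and 9.03 in bleomycin lung 3, and at most 5.61 on every other array. In the kidney, obstruction and this difference cannot be told apart. Healthy lung 3 carried liver transcripts (Apoa1 at 13.94, against 4.54 and 4.51 in healthy lungs 1 and 2) and healthy lung 2 carried skeletal muscle transcripts (Acta1 at 13.12, against 6.81 and 5.35 in healthy lungs 1 and 3). The obstructed kidneys carried the lung transcript Scgb1a1, at 12.48 and 11.35, against 4.37 to 4.52 in the healthy kidneys. Slc34a1, a phosphate transporter of the proximal tubule, was at 14.55 and 13.39 in the obstructed and 15.04 to 15.12 in the healthy kidneys, and at most 7.70 in every lung. Sftpc, surfactant protein C, was at 13.51 to 13.68 in the bleomycin and 14.00 to 14.15 in the healthy lungs, but also at 9.22 and 7.75 in the obstructed kidneys, against 4.38 to 4.59, not above background, in the healthy kidneys.

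The first comparison asked how the pathway changed in the obstructed kidney. Of the 84 genes, 27 fell and 1 rose past the threshold (limma), where 38.8% of all genes tested passed it, 15.6% falling and 23.2% rising. The number of falls was 15 with scaling to a common median, 59 in the authors' processed intensities and 13 with the kidney arrays alone. The median change was -0.34 log2, against 0.10 over all genes. Complex II, cytochrome c and the accessory subunits of complex I held most of the falls. By their brightest probes, the catalytic F1 part of ATP synthase and most subunits of complex IV did not pass the threshold. Of 27 genes with several kept probes, 9 had probes of both signs in this comparison. Cycs, a carrier of electrons between complexes III and IV, fell by 1.38 ± 0.20 (SE) and Atp5pb, subunit b of the ATP synthase stalk, by 2.00 ± 0.17.

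The obstructed kidneys differed from each other. The median of the 84 genes, as a deviation from the healthy kidneys' mean, was -0.045 log2 in obstructed kidney 1 and -0.595 in obstructed kidney 2, while the healthy kidneys lay between -0.035 and 0.028. In obstructed kidney 2, 82 of the 84 genes were lower than in obstructed kidney 1, against 51.0% of all genes. Below every healthy kidney were 36 of the 84 genes in obstructed kidney 1 (32.6% of all genes) and 76 in obstructed kidney 2 (35.3% of all genes), and 36 in both (25.2% of all genes). With obstructed kidney 2 left out, the median change of the 84 genes was -0.0445, against 0.10 over all genes. With obstructed kidney 1 left out, it was -0.595, against 0.07 over all genes. Of the 28 calls, 10 were kept whichever array was left out: Atp5j, Atp5pb, Cox6b2, Cycs, Ndufa6, Ndufaf4, Ndufaf7, Ndufb7, Ndufc2 and Ndufs4. The share of all genes' calls kept this way is not given here. The 84 genes took up 5.19% and 3.83% of the summed linear signal of all tested genes in the obstructed kidneys. In the healthy kidneys they took up 5.46%, 5.46% and 5.41%.

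**Figure D1:**
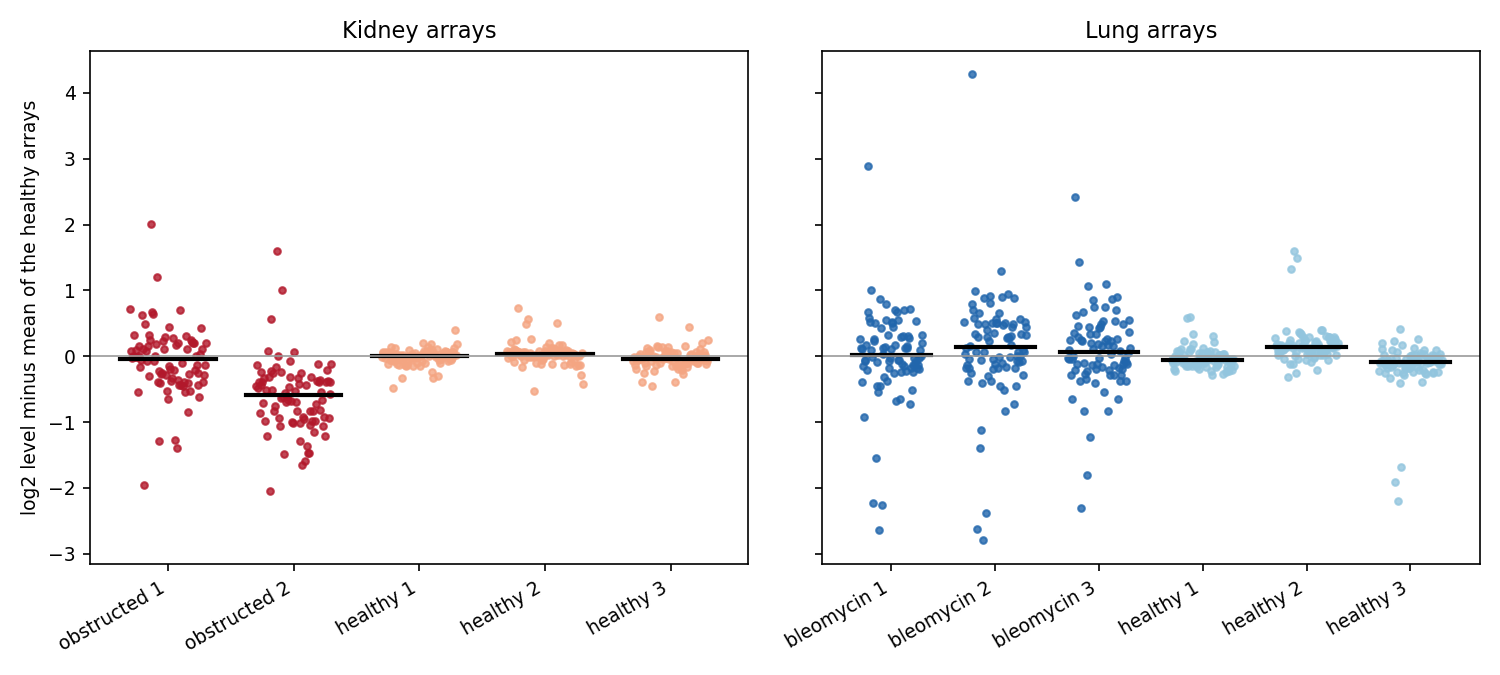
Log2 level of each of the 84 oxidative phosphorylation genes minus its mean in the healthy arrays of the same organ (y axis), for each array (x axis), with kidney arrays on the left and lung arrays on the right. Points are genes and black lines medians; the median is -0.595 in obstructed kidney 2 and between -0.090 and 0.143 on every other array.

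Tubule and immune markers moved in the same arrays. In the obstructed kidneys 10 of 19 proximal tubule genes fell and none rose, and their summed level, on the log2 scale, was 15.69 to 16.65 in the obstructed and 17.44 to 17.47 in the healthy kidneys. All 10 macrophage genes and 8 of 9 fibroblast genes rose, with macrophage summed levels of 14.49 to 14.67 in the obstructed and 11.32 to 11.70 in the healthy kidneys. Fibroblast levels summed to 13.66 to 14.10 in the obstructed and 11.39 to 12.24 in the healthy kidneys. Of 8 genes of the thick ascending limb and distal tubule, 1 fell, or 12.5% against 15.6% of all genes. Their summed levels were 15.07 to 15.39 in the obstructed and 15.35 to 15.50 in the healthy kidneys. Of the lung epithelial lists, 2 of 4 club cell, 3 of 8 alveolar type 2 and 2 of 7 ciliated cell genes rose in the obstructed kidneys. Of all genes 23.2% rose. Ciliated cell levels summed to 8.04 to 8.52 in the obstructed and 8.13 to 8.47 in the healthy kidneys, which overlapped. Of 5 T and NK cell genes 3 rose, and of 4 erythroid genes 3 fell, with erythroid levels summing to 12.89 to 13.71 in the obstructed and 13.91 to 14.44 in the healthy kidneys. Their part in the changes of the respiratory genes was not tested, and in whole tissue, fewer cells of a type and less RNA per cell cannot be told apart.

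**Figure D2:**
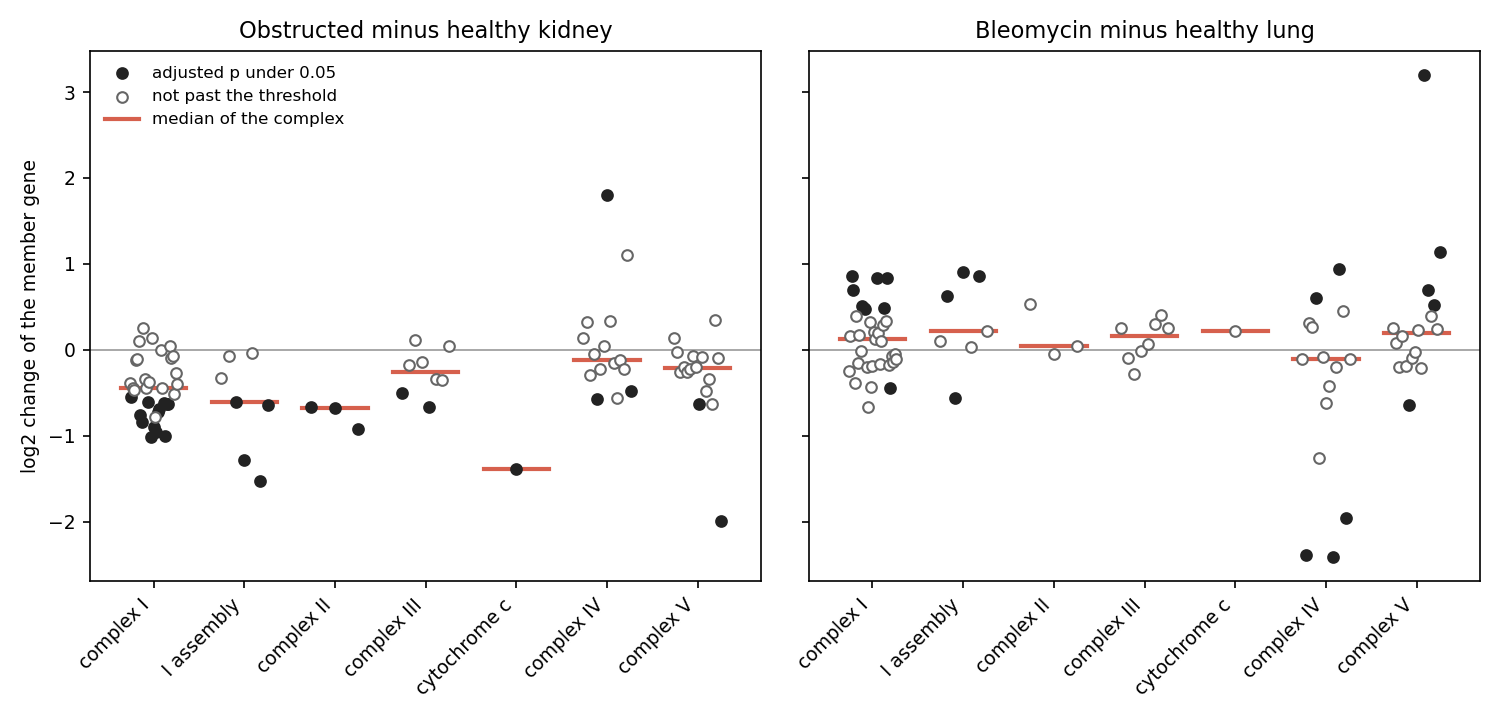
Log2 change of each gene (y axis) by respiratory complex (x axis), obstructed minus healthy kidney on the left and bleomycin minus healthy lung on the right. Filled points passed the limma threshold, open points did not, and red lines are medians; every member of complex II and cytochrome c fell in kidney, and 3 isoform genes of complex IV stand lowest in lung.

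In complex I, 13 of 33 subunits fell in obstructed kidney and 0 rose, with a median change of -0.44 and a range of -1.02 to 0.26. Of the 28 accessory subunits 12 fell (median -0.45), and of the 5 core subunits, which make up the conserved catalytic part, 1 fell, Ndufs3 (median -0.27). The difference between core and accessory subunits was not tested. Ndufc2, an accessory subunit of the membrane arm, was at 11.25 and 10.94 in the obstructed kidneys and 11.99, 12.16 and 12.12 in the healthy ones. Both obstructed kidneys lay below every healthy one, and Ndufc2 fell by 1.00 ± 0.16 (limma adjusted p = 0.000887). Ndufa6, an accessory subunit, was at 12.46 and 12.09 in the obstructed kidneys and 13.12, 13.11 and 13.10 in the healthy ones. The groups did not overlap, and Ndufa6 fell by 0.84 ± 0.15 (limma adjusted p = 0.00154). Ndufb7, an accessory subunit of the membrane arm, was at 9.38 and 9.09 in the obstructed kidneys and 9.91, 10.10 and 9.76 in the healthy ones, again without overlap, and fell by 0.69 ± 0.15 (limma adjusted p = 0.00534).

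Ndufs4, an accessory subunit that is mutated in inherited complex I deficiency, was at 11.68 and 11.49 in the obstructed kidneys and 12.23, 12.25 and 12.17 in the healthy ones. It fell by 0.63 ± 0.14 (limma adjusted p = 0.0046) without overlap. That fall was seen with its brightest probe alone: the other 3 probes for Ndufs4 changed by 0.15, 0.02 and 0.29, and none of them passed the threshold. At the other end of complex I, Ndufb8 was at 14.06 and 13.43 in the obstructed kidneys, 1 above and 1 below the healthy values of 13.85, 13.75 and 13.65, with a change of -0.00 ± 0.23 (limma adjusted p = 0.994). The remaining subunits past the threshold were Ndufa5, Ndufa10, Ndufab1, Ndufb3, Ndufb5, Ndufb6, Ndufb11, Ndufc1 and Ndufs3. Each of these calls was lost without obstructed kidney 2. Those of Ndufa10, Ndufab1, Ndufb11 and Ndufs3 were also lost without other single arrays, in 7, 4, 3 and 4 cases in all.

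Of the 7 assembly factors of complex I, 4 fell and 0 rose (median -0.61). Ndufaf7, a methyltransferase that modifies a core subunit, was at 7.38 and 7.12 in the obstructed kidneys and 8.91, 8.78 and 8.64 in the healthy ones. Both obstructed values lay more than 1 log2 unit below the lowest healthy one, a fall of 1.53 ± 0.18 (limma adjusted p = 0.00015). Ndufaf4 was at 10.08 in both obstructed kidneys and 11.42, 11.25 and 11.41 in the healthy ones, and fell by 1.28 ± 0.19 (limma adjusted p = 0.000523). Ndufaf3, a partner of Ndufaf4 in assembly, fell by 0.61 ± 0.21 (limma adjusted p = 0.0428) and Ndufaf8 by 0.65 ± 0.22 (adjusted p = 0.0404). With 1 array left out, the calls of Ndufaf3 and Ndufaf8 were lost in 9 and 6 cases, obstructed kidney 2 among them.

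All 3 measured subunits of complex II fell in obstructed kidney (median -0.68). Sdhb, the iron-sulfur subunit, was at 11.56 and 10.76 in the obstructed kidneys and 11.78, 11.77 and 11.93 in the healthy ones, a fall of 0.66 ± 0.22 (limma adjusted p = 0.0363). Sdhc, a membrane anchor, was at 12.41 and 11.92 in the obstructed kidneys and 12.86, 12.87 and 12.79 in the healthy ones, a fall of 0.68 ± 0.18 (limma adjusted p = 0.0138). Sdhd, the other anchor, was at 8.06 and 7.46 in the obstructed kidneys and 8.63, 8.54 and 8.88 in the healthy ones, a fall of 0.92 ± 0.23 (limma adjusted p = 0.00898). For each of the 3 genes both obstructed kidneys were below every healthy one, and obstructed kidney 2 was the lower. All 3 calls were lost without obstructed kidney 2, where the changes were -0.26 for Sdhb, -0.43 for Sdhc and -0.62 for Sdhd. The call of Sdhb was also lost without other single arrays, in 5 cases in all. With scaling to a common median in place of quantile normalisation, Sdhc fell by 0.68 (limma adjusted p = 0.0244), while Sdhb and Sdhd had adjusted p = 0.0909 and 0.0742. The catalytic flavoprotein Sdha was not above background, so the complex was covered in part.

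Cycs, a soluble carrier that also has a role in apoptosis, was at 11.87 and 11.68 in the obstructed kidneys and 13.17, 13.18 and 13.13 in the healthy ones. The obstructed values lay more than 1 log2 unit below every healthy value, and the fall of 1.38 ± 0.20 (limma adjusted p = 0.000432) stayed past the threshold when either obstructed kidney was left out. Its 2 dimmer probes changed by -0.67 and -1.49. The promoter of Cycs, printed above, held the NRF1 letters, which were found for 20 of the 71 genes with a promoter entry. A link between these letters and the changes was not tested.

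In complex III, 2 of 8 subunits fell (median -0.25, range -0.66 to 0.11). Cyc1, cytochrome c1, which hands electrons to cytochrome c, was at 12.00 and 11.76 in the obstructed kidneys and 12.48, 12.40 and 12.28 in the healthy ones, a fall of 0.51 ± 0.15 (limma adjusted p = 0.024). Uqcrc2, a core protein on the matrix side, was at 13.11 and 12.57 in the obstructed kidneys and 13.63, 13.37 and 13.51 in the healthy ones, a fall of 0.66 ± 0.19 (limma adjusted p = 0.0193). Neither gene overlapped between the groups, but both calls were lost without obstructed kidney 2. With 1 array left out, the call of Cyc1 was lost in 3 cases and that of Uqcrc2 in 2. Uqcrq had the largest p, with 8.42 and 8.11 in the obstructed kidneys within the healthy values of 8.40, 7.80 and 8.46 and a change of 0.04 ± 0.22 (limma adjusted p = 0.907). Uqcrfs1, the Rieske protein, was not above background in any kidney.

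In complex IV, 2 of 15 genes fell and 1 rose (median -0.12), or 13.3% and 6.67% against 15.6% and 23.2% of all genes. Cox6a1, the widespread form of subunit VIa, was at 13.49 and 12.96 in the obstructed kidneys and 13.80, 13.86 and 13.71 in the healthy ones, a fall of 0.57 ± 0.18 (limma adjusted p = 0.0325). Ndufa4, first described as a complex I protein, was at 13.74 and 13.36 in the obstructed kidneys and 13.93, 13.99 and 14.16 in the healthy ones, a fall of 0.48 ± 0.17 (limma adjusted p = 0.0498). With 1 array left out, the call of Cox6a1 was lost in 4 cases and that of Ndufa4 in 9, obstructed kidney 2 among them. Cox6b2, known as the testis form of subunit VIb, was at 7.55 and 7.14 in the obstructed kidneys and 5.21, 6.10 and 5.32 in the healthy ones. The groups did not overlap, and Cox6b2 rose by 1.80 ± 0.31 (limma adjusted p = 0.00122); its probe was dim, above background in 2 of the 3 healthy kidneys. Cox4i1 and Cox6b1, the widespread forms of subunits IV and VIb, changed by 0.13 ± 0.23 and 0.04 ± 0.16, and neither passed the threshold (limma adjusted p = 0.695 and 0.864). Cox7a2 and Cox7b changed by -0.56 ± 0.27 and -0.23 ± 0.26 (limma adjusted p = 0.13 and 0.534). The brightest probe of Cox5b changed by -0.04 and did not pass the threshold. Its dimmer probe fell by 0.90 in the fit of all probes (limma adjusted p = 0.00315).

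In complex V, 2 of 16 subunits fell (median -0.21), or 12.5% against 15.6% of all genes. Both were of the peripheral stalk, which holds the catalytic head still. Atp5h, also of the stalk, changed by -0.20 and did not pass the threshold. Atp5pb was at 10.42 and 10.32 in the obstructed kidneys and 12.49, 12.38 and 12.22 in the healthy ones. The groups did not overlap, and Atp5pb fell by 2.00 ± 0.17 (limma adjusted p = 2.58e-05), and the other 3 kept probes for Atp5pb changed by -1.49, -1.10 and -0.54. Atp5j, coupling factor 6, was at 12.92 and 12.76 in the obstructed kidneys and 13.53, 13.38 and 13.49 in the healthy ones, a fall of 0.63 ± 0.15 (limma adjusted p = 0.00682) without overlap. Of the 5 F1 subunits, 0 passed the threshold by limma, 0 at an unadjusted p under 0.05, and their changes lay between -0.26 and 0.13. Atp5b, the catalytic beta subunit, was at 15.12 and 14.89 in the obstructed kidneys, 1 above and 1 below the healthy values of 15.07, 15.00 and 15.02 (change -0.03 ± 0.14, limma adjusted p = 0.911). The 2 measured subunits of the proton-driven ring, Atp5g2 and Atp5g3, changed by -0.23 ± 0.19 and -0.07 ± 0.14 (limma adjusted p = 0.374 and 0.75). The brightest probe of Atp5o, the link between stalk and head, changed by -0.10, and 2 dimmer ones by -1.46 and -0.20. The fall of 1.46 passed the threshold in the fit of all probes (limma adjusted p = 0.000191).

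**Figure D3:**
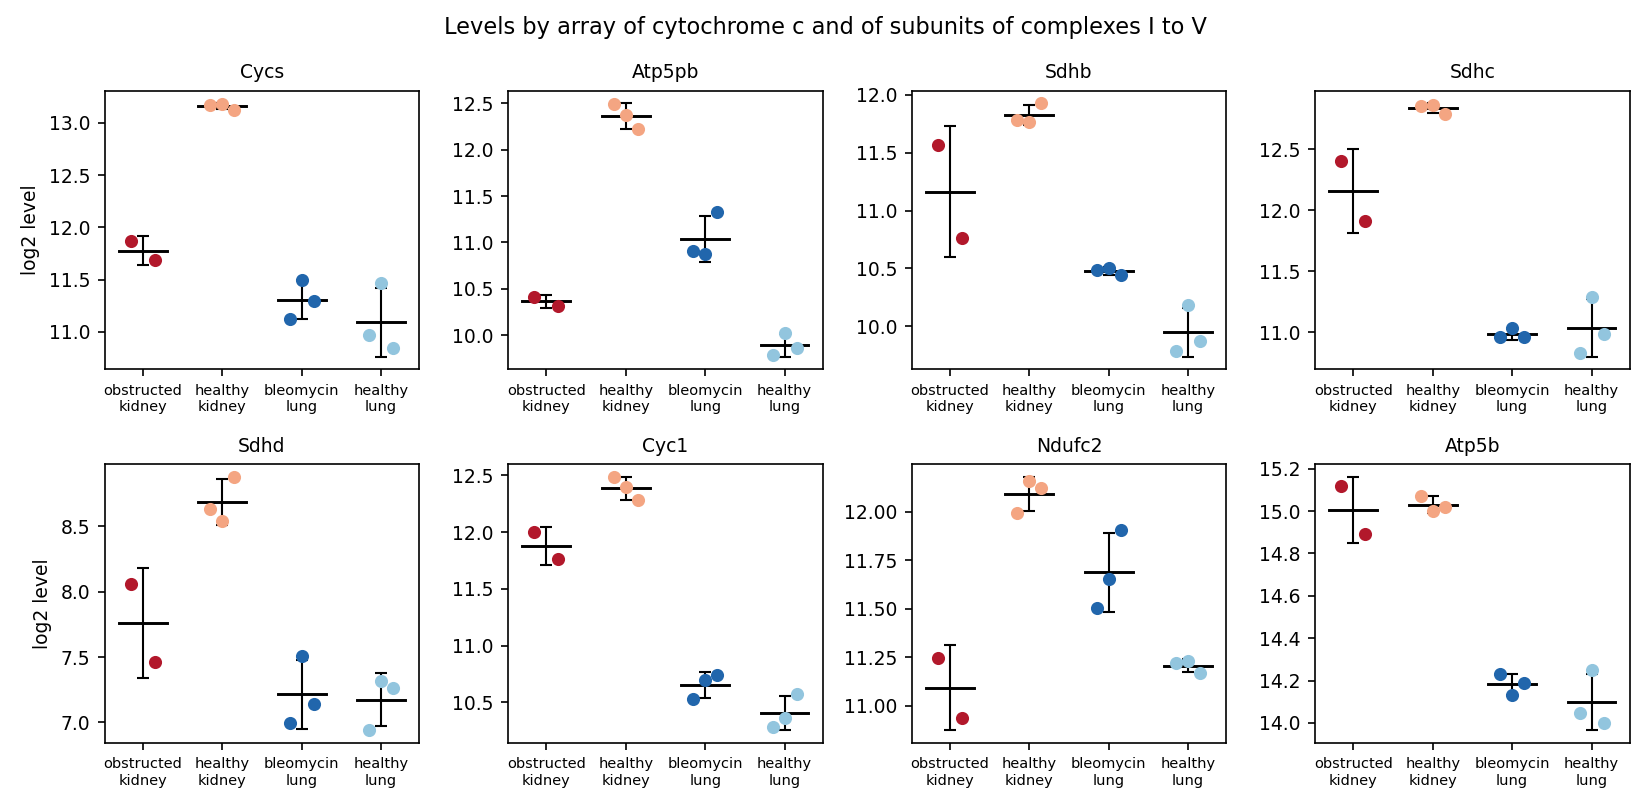
Log2 level by array (points; y axis) in the 4 groups (x axis) for cytochrome c (Cycs), Atp5pb and Atp5b of ATP synthase, 3 subunits of complex II, Cyc1 of complex III and Ndufc2 of complex I, with the group mean (line) and SD (bar; n = 2 for obstructed kidney and 3 for the others). For all panels but Atp5b, both obstructed kidneys lie below every healthy kidney.

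Other nuclear genes of the mitochondrion and the mitochondrially encoded subunits were set beside the 84 genes, with lists chosen from their known roles. Of all genes, 15.6% fell and 23.2% rose in obstructed kidney. Of 17 assembly factors of complex IV, 8 fell and 0 rose in obstructed kidney (median -0.56), among them Surf1 (-1.35 ± 0.22) and Cox15 (-1.13 ± 0.14), which acts in haem A synthesis. Of 14 further assembly factors of complexes I, II, III and V, 6 fell and 1 rose (median -0.52). Acad9, which takes part in complex I assembly, was at 7.87 and 7.33 in the obstructed kidneys and 9.88, 10.18 and 10.29 in the healthy ones, a fall of 2.51 ± 0.20 (limma adjusted p = 1.71e-05). Uqcc2, an assembly factor of complex III, rose by 0.84 ± 0.17 (limma adjusted p = 0.00321).

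Of 16 regulators of mitochondrial biogenesis and mitochondrial DNA upkeep, 6 fell and 1 rose in obstructed kidney (median -0.51). Ppargc1a, a coactivator that drives respiratory genes, was at 9.98 and 8.32 in the obstructed kidneys and 10.58, 10.60 and 10.60 in the healthy ones, a fall of 1.44 ± 0.43 (limma adjusted p = 0.0216). Tfam, which packages and transcribes mitochondrial DNA, fell by 0.61 ± 0.21 (limma adjusted p = 0.0398), and Tfb2m, a mitochondrial transcription factor, by 1.24 ± 0.17 (limma adjusted p = 0.000287). Pprc1, a relative of Ppargc1a, rose by 1.66 ± 0.31 (limma adjusted p = 0.00234). Nrf1 itself changed by 0.25 ± 0.19 (adjusted p = 0.327). Of 16 proteins of the outer membrane, import machinery and cristae, 7 fell and 0 rose (median -0.42), and of 8 carriers and related proteins, 2 fell (median -0.13).

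Of the 7 mitochondrially encoded subunits with a kept probe, 2 fell in obstructed kidney (median -0.23). CYTB, the cytochrome b of complex III, was at 14.76 and 14.70 in the obstructed kidneys and 14.72, 14.77 and 14.69 in the healthy ones, a change of 0.00 ± 0.12 (limma adjusted p = 0.998). COX2, ATP6, ND1 and ND4 changed by 0.04, -0.23, -0.23 and -0.32 and did not pass the threshold. ND4L was at 6.06 and 5.76 in the obstructed kidneys and 9.01, 9.15 and 8.84 in the healthy ones, a fall of 3.09 ± 0.23 (limma adjusted p = 1.22e-05). ND5 was at 5.52 and 7.75 in the obstructed kidneys and 8.79, 8.62 and 8.65 in the healthy ones, a fall of 2.05 ± 0.50 (limma adjusted p = 0.0085). In both genes the groups did not overlap.

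The second comparison asked how the pathway changed in the lung after bleomycin. Of the 84 genes, 17 rose and 7 fell past the threshold (limma), where 37.8% of all genes passed it, 18.9% rising and 18.9% falling. As shares of the 84 genes, 20.2% rose and 8.33% fell, close to the share of all genes for rises and below it for falls. The median change was 0.10, against -0.03 over all genes. Of the subunits of complex I 24.2% rose and of those of complex V 25.0%, against 18.9% of all genes. The falls included 3 tissue isoforms of complex IV. By array, the median deviation from the healthy lungs' mean was 0.018, 0.143 and 0.064 in the bleomycin lungs and -0.054, 0.140 and -0.090 in the healthy lungs, so that the groups overlapped. Every bleomycin lung was above every healthy lung for 26 genes (26.1% of all genes) and below for 14 (26.8% of all genes).

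The counts moved with the arrays and the scaling. With healthy lung 3, which carried liver transcripts, left out, 13 genes rose and 6 fell, and without healthy lung 2, 16 rose and 3 fell. Without bleomycin lung 3, whose sex-linked transcripts differed from those of the other lungs, 15 rose and 5 fell. With scaling to a common median, 33 rose and 1 fell, and in the authors' processed intensities 54 rose and 1 fell. Of the 24 calls, 13 were kept whichever array was left out. With an array left out, the shares of all genes called or kept are not given here. Among cell markers, 7 of 10 macrophage genes rose in the bleomycin lungs, all 4 erythroid genes fell, and 2 of 8 alveolar type 2 genes fell, with summed log2 levels of 15.79 to 15.93 in the bleomycin and 16.21 to 16.33 in the healthy lungs. Macrophage levels summed to 15.57 to 16.04 in the bleomycin and 15.62 to 15.69 in the healthy lungs, and erythroid ones to 9.70 to 10.39 and 15.16 to 15.19, with 1 of the 4 not above background in the bleomycin lungs. All 5 T and NK cell genes and 4 of 7 endothelial genes fell, and 4 of 9 fibroblast genes rose. The part of these cells in the changes was not tested.

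In complex I, 8 of 33 subunits rose after bleomycin and 1 fell (median 0.12), or 24.2% and 3.03% against 18.9% and 18.9% of all genes. The risers, all accessory subunits, were Ndufa7, Ndufa8, Ndufa9, Ndufa11, Ndufa12, Ndufb6, Ndufc2 and Ndufs4. Ndufs4 was at 11.36, 11.52 and 11.53 in the bleomycin lungs and 10.62, 10.74 and 10.56 in the healthy ones, a rise of 0.83 ± 0.12 (limma adjusted p = 0.000605). Ndufa11 was at 11.22, 11.33 and 11.28 in the bleomycin lungs and 10.26, 10.76 and 10.24 in the healthy ones, a rise of 0.86 ± 0.16 (limma adjusted p = 0.00245). Neither gene overlapped between the groups. Ndufb6 rose by 0.83 ± 0.18 and Ndufa12 by 0.70 ± 0.15 (limma adjusted p = 0.00424 and 0.00516), but a dimmer probe for Ndufb6 changed by -0.30. Of the other 3 probes for Ndufs4, 1 also passed the threshold in the fit of all probes (change 0.58), and the others changed by 0.25 and 0.11.

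Ndufs7, a core iron-sulfur subunit, was at 11.47, 11.53 and 11.60 in the bleomycin lungs and 12.00, 12.01 and 11.91 in the healthy ones, a fall of 0.44 ± 0.16 (limma adjusted p = 0.0472) against the direction of the other called subunits. The groups did not overlap, but the call was lost when any 1 of 9 arrays was left out, and in the authors' processed intensities the change was 0.14 (adjusted p = 0.51). That scaling moved the median of all genes to 0.48, and relative to it Ndufs7 was at -0.34. Ndufa6, which fell in obstructed kidney, was at 11.93, 11.71 and 11.81 in the bleomycin and 11.88, 11.77 and 11.84 in the healthy lungs (change -0.01 ± 0.13, limma adjusted p = 0.952). Of the 7 assembly factors, 3 rose and 1 fell (median 0.22). Ndufaf7 was at 7.55, 7.90 and 8.10 in the bleomycin lungs and 7.08, 6.98 and 6.92 in the healthy ones, a rise of 0.85 ± 0.16 (limma adjusted p = 0.00253) without overlap. Ndufaf4 rose by 0.90 ± 0.17 with its brighter probe (limma adjusted p = 0.00228), while its other probe fell by 0.65 in the fit of all probes (limma adjusted p = 0.0067), so its direction in lung depends on the probe. Ndufaf2 rose by 0.63 ± 0.17 and Ndufaf3 fell by 0.56 ± 0.19 (limma adjusted p = 0.0166 and 0.0408). The lung call of Ndufaf3 was lost when any 1 of 9 arrays was left out.

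In complexes II and III, 0 of 11 subunits passed the threshold in lung by limma, with 1 in each complex at an unadjusted p under 0.05, Sdhb and Uqcrh. Uqcrh, the hinge protein of complex III, was at 12.91, 12.91 and 13.14 in the bleomycin lungs, above the healthy values of 12.55, 12.74 and 12.46 (change 0.40 ± 0.15, limma adjusted p = 0.0594). Sdhb was at 10.49, 10.51 and 10.44 in the bleomycin lungs, above the healthy values of 9.78, 10.18 and 9.88 (change 0.53 ± 0.20, limma adjusted p = 0.0568). Sdhc and Sdhd changed by -0.05 ± 0.16 and 0.04 ± 0.20 (limma adjusted p = 0.838 and 0.894). Cycs was at 11.12, 11.50 and 11.30 in the bleomycin lungs and 10.97, 11.46 and 10.84 in the healthy ones, which overlapped (change 0.21 ± 0.18, limma adjusted p = 0.373). Cyc1 changed by 0.25 ± 0.14 and Uqcrc1 by -0.02 ± 0.16 (limma adjusted p = 0.179 and 0.948).

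In complex V, 4 of 16 subunits rose after bleomycin and 1 fell (median 0.19), or 25.0% and 6.25% against 18.9% and 18.9% of all genes. Atp5pb was at 10.90, 10.88 and 11.32 in the bleomycin lungs and 9.79, 10.03 and 9.86 in the healthy ones, a rise of 1.14 ± 0.15 (limma adjusted p = 0.000406). Atp5l, subunit g, was at 13.50, 13.61 and 13.46 in the bleomycin lungs and 12.82, 12.94 and 12.72 in the healthy ones, a rise of 0.70 ± 0.13 (limma adjusted p = 0.00271). Atp5k, subunit e, which sits with subunit g where ATP synthases pair up, was at 7.79, 9.19 and 7.32 in the bleomycin lungs and 4.98, 5.00 and 4.73 in the healthy ones. Each of the 3 genes was higher in every bleomycin lung than in every healthy lung. Atp5k rose by 3.20 ± 0.43 (limma adjusted p = 0.00038), but its only kept probe was above background in 1 of the 3 healthy lungs, so the size of its change rests on values near background; with no background correction the change was 1.65. Atp5mpl, a small membrane subunit, rose by 0.52 ± 0.16 and Atp5g2, a ring subunit, fell by 0.65 ± 0.17 (limma adjusted p = 0.0243 and 0.0118). The dimmer probe of Atp5mpl changed by 0.02, and the call of Atp5mpl was lost with 1 array left out in 4 cases. With scaling to a common median, Atp5g2 changed by -0.26 (adjusted p = 0.302). Of the 5 F1 subunits 0 passed the threshold (limma), and 0 at an unadjusted p under 0.05, and Atp5h of the stalk changed by -0.03 ± 0.16 (limma adjusted p = 0.897). The brightest probe of Atp5o changed by 0.24 and did not pass. Its dimmer probes changed by 1.165 (limma adjusted p = 0.00047 in the fit of all probes) and -0.06.

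In complex IV, 2 of 15 genes rose after bleomycin and 3 fell (median -0.11), or 13.3% and 20.0% against 18.9% and 18.9% of all genes. Cox7a2l, a factor that joins complexes III and IV into supercomplexes, was at 11.32, 11.34 and 11.52 in the bleomycin lungs and 10.30, 10.20 and 10.87 in the healthy ones, a rise of 0.94 ± 0.19 (limma adjusted p = 0.00305). Cox6a1 was at 12.91, 13.06 and 13.07 in the bleomycin lungs and 12.29, 12.29 and 12.64 in the healthy ones, a rise of 0.61 ± 0.17 (limma adjusted p = 0.0154). Neither gene overlapped between the groups. Cox4i1 changed by -0.11 ± 0.20 and Ndufa4 by -0.11 ± 0.16 (limma adjusted p = 0.715 and 0.605). The brightest probe of Cox5b changed by 0.26 and did not pass the threshold. Its dimmer probe rose by 0.67 in the fit of all probes (limma adjusted p = 0.00882).

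Of the 5 tissue isoforms of complex IV, 3 fell and 0 rose after bleomycin, with a median change of -1.95. Cox4i2, the isoform of subunit IV typical of lung, was at 7.40, 7.01 and 7.33 in the bleomycin lungs and 9.85, 9.31 and 9.72 in the healthy ones. Every bleomycin lung lay below every healthy lung, a 5.22-fold fall (change -2.38 ± 0.19, limma adjusted p = 2.97e-05). Leaving out any 1 array gave changes between -2.54 and -2.26. Cox4i2 was not above background in any healthy kidney and was above it in 1 of the 2 obstructed kidneys.

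Cox7a1 and Cox8b, isoforms of heart and skeletal muscle, and of brown fat, varied with muscle transcripts among the healthy lungs. Cox7a1 was at 7.53, 7.38 and 8.38 in the bleomycin lungs and 10.78, 11.76 and 7.98 in the healthy ones, a fall of 2.41 ± 0.79 (limma adjusted p = 0.0357). Cox8b was at 7.62, 7.49 and 8.64 in the bleomycin lungs and 10.06, 11.36 and 8.19 in the healthy ones, a fall of 1.95 ± 0.66 (limma adjusted p = 0.0399). In both genes the groups overlapped through healthy lung 3, and healthy lung 2 was the highest. Cox6a2, the muscle isoform of subunit VIa, was at 9.98, 10.14 and 10.70 in the bleomycin lungs and 12.11, 12.85 and 9.62 in the healthy ones, with the same array lowest and the same highest (change -1.26 ± 0.69, limma adjusted p = 0.179).

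A heart muscle transcript had the same order among the healthy lungs. Myh6, the atrial and adult cardiac myosin of mice, was at 10.53, 9.89 and 10.88 in the bleomycin lungs and 12.09, 13.01 and 6.26 in the healthy ones. Healthy lung 3 lay below every bleomycin lung for Myh6 and Cox6a2, but above bleomycin lungs 1 and 2 for Cox7a1 and Cox8b. Of 7 cardiac genes 0 passed the threshold in lung by limma, with summed log2 levels of 12.08 to 13.56 in the bleomycin and 10.20 to 15.93 in the healthy lungs, and all 7 were above background on some array of each group. Of 4 skeletal muscle genes 0 passed (7.43 to 7.87 against 7.12 to 13.61), and of 4 adipocyte genes 2 fell (7.18 to 8.45 against 8.97 to 11.40). Cox4i2 did not vary with them: it was at 9.72 in healthy lung 3, where Myh6 was lowest. Without healthy lung 3 the changes were -3.51 for Cox7a1, -2.80 for Cox8b and -2.21 for Cox6a2 (limma adjusted p = 0.000457, 0.00139 and 0.00201). Without healthy lung 2 they were -1.62, -1.21 and -0.60, and none passed. The part of muscle in these samples in the isoform changes was not tested.

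**Figure D4:**
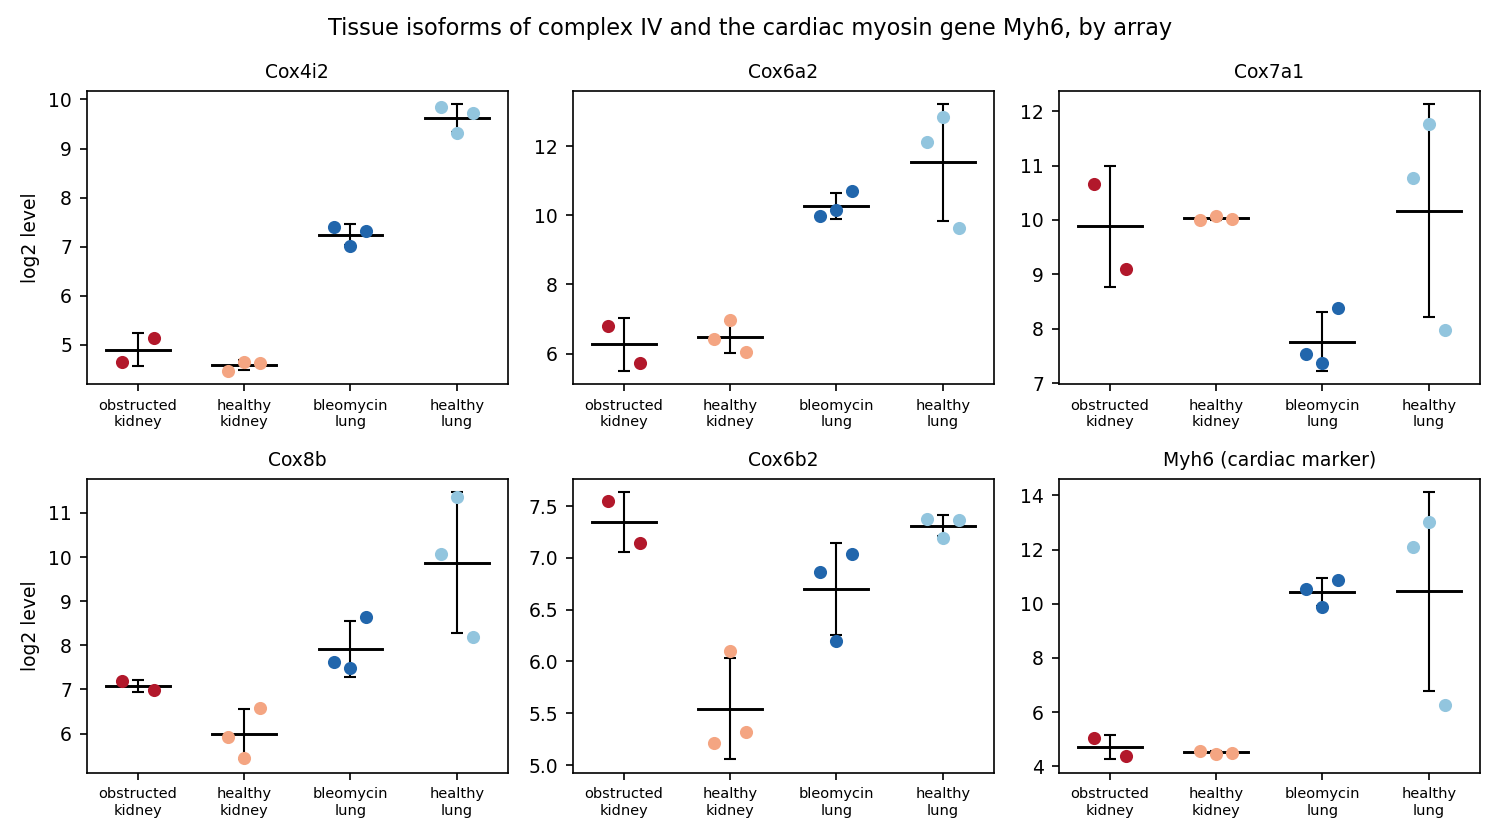
Log2 level by array (points; y axis) in the 4 groups (x axis) for 5 tissue isoforms of complex IV and for the cardiac gene Myh6, with the group mean (line) and SD (bar; n = 2 for obstructed kidney and 3 for the others). Cox6a2, Cox7a1, Cox8b and Myh6 are lowest, among the healthy lungs, in healthy lung 3, while Cox4i2 lies between 9.31 and 9.85 in all 3.

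The lists of other mitochondrial genes were also counted in lung, where 18.9% of all genes rose and 18.9% fell. Of 16 proteins of the outer membrane, import and cristae, 8 rose and 2 fell after bleomycin (median 0.40), and of 17 complex IV assembly factors, 5 rose and 0 fell (median 0.13). Sco1, a copper chaperone of complex IV, rose by 0.98 ± 0.16 (limma adjusted p = 0.00102). Of the 16 biogenesis regulators, 2 rose and 4 fell (median -0.15), with Ppargc1b falling by 1.52 ± 0.31 and Esrra by 0.87 ± 0.23 (limma adjusted p = 0.00352 and 0.0136). Of 14 assembly factors of complexes I, II, III and V, 3 rose and 1 fell (median 0.12), and of 8 carriers, 3 rose (median 0.09). Of the 7 mitochondrially encoded subunits, ND5 rose by 1.46 ± 0.45 and ATP6 fell by 0.39 ± 0.14 (limma adjusted p = 0.0257 and 0.0474), and CYTB changed by 0.05 ± 0.11.

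The third comparison tested whether the changes differed between the organs, as the kidney change minus the lung change. For 30 of the 84 genes the kidney change was lower than the lung change past the threshold (limma), and for 4 it was higher, where 40.0% of all genes differed, 16.2% lower and 23.9% higher. In the authors' processed intensities it was lower for 72 and higher for 2. The median difference was -0.39, against 0.13 over all genes. Of the 34 differences, 24 were kept whichever array was left out. The share of all genes' differences kept this way is not given here. The 34 differences lay in complex I (15 of 33 lower), complex II (2 of 3), complex III (3 of 8) and cytochrome c. They also lay in complex IV (2 lower and 4 higher of 15), complex V (4 of 16) and the assembly factors of complex I (3 of 7).

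Past the threshold, 7 genes fell in obstructed kidney and rose in bleomycin lung: Atp5pb, Cox6a1, Ndufaf4, Ndufaf7, Ndufb6, Ndufc2 and Ndufs4. Of these, Atp5pb, Ndufaf4, Ndufaf7 and Ndufs4 kept both calls whichever array was left out. With 1 array left out, Ndufb6 could lose its kidney call, Ndufc2 its lung call and Cox6a1 either call. Ndufaf3 fell in both organs, but in each its call was lost when any 1 of 9 arrays was left out. With scaling to a common median Ndufaf3 passed in neither organ (limma adjusted p = 0.425 in kidney and 0.249 in lung). Across the set, 0 genes rose in both organs and 40 passed in neither. The share of all genes with each of these patterns was not counted. Among the 7 genes with opposite calls, the largest difference was that of Atp5pb, at -3.14 ± 0.23 (limma adjusted p = 2.24e-05). It was followed by Ndufaf7 at -2.38 ± 0.24 and Ndufaf4 at -2.18 ± 0.25 (limma adjusted p = 8.77e-05 and 0.000167). Ndufb6, Ndufc2 and Ndufs4 differed by -1.55, -1.48 and -1.47 and Cox6a1 by -1.18 (limma adjusted p between 0.000245 and 0.00405). The other 3 probes for Ndufs4 differed by -0.10, -0.56 and 0.18, and the dimmer probes for Ndufb6, Ndufaf4 and Ndufc2 by -0.72, -0.43 and 0.16, and none of these passed the threshold in the fit of all probes. The dimmer Ndufc2 probe was above background on 2 arrays. Cycs, called in kidney alone, differed by -1.60 ± 0.26 (limma adjusted p = 0.00109), and Uqcrh, called in neither organ, by -0.76 ± 0.23 (limma adjusted p = 0.0229). The 4 genes with a higher kidney change were all of complex IV: Cox8b (3.06 ± 0.99), Cox4i2 (2.70 ± 0.28), Cox6b2 (2.41 ± 0.41) and Cox6c (0.76 ± 0.27), and those of Cox8b and Cox6c were lost with 1 array left out in 7 and 9 cases. The Cox4i2 value is no exact difference, since its probe stood above background in 1 of 2 obstructed and 0 of 3 healthy kidneys. Sdhc, Ndufs8, Uqcr10, Cox6b1 and Atp5g3 had differences of -0.63, -0.00, -0.08, 0.12 and 0.03, and none passed the threshold.

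The fourth comparison set the healthy organs side by side. Of the 84 genes, 76 were higher in healthy kidney than in healthy lung and 4 were lower (limma), where 61.6% of all genes differed, 28.2% higher and 33.5% lower. The median difference was 1.10, against -0.09 over all genes. All 16 subunits of complex V, 32 of 33 of complex I, all 3 of complex II, 7 of 8 of complex III, cytochrome c and 9 of 15 genes of complex IV were higher in kidney. The 84 genes took up 5.41% to 5.46% of the summed linear signal in the healthy kidneys and 2.37% to 2.93% in the healthy lungs. With any 1 array left out, 72 to 77 genes were higher and 4 or 5 lower.

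By complex, the median difference was 1.24 for complex I, 1.80 for complex II, 1.08 for complex III, 0.66 for complex IV and 0.95 for complex V. Atp5pb was at 12.49, 12.38 and 12.22 in the healthy kidneys and 9.79, 10.03 and 9.86 in the healthy lungs, a difference of 2.47 ± 0.15 (limma adjusted p = 3.71e-07). Cycs differed by 2.07 ± 0.18 and Cyc1 by 1.98 ± 0.14 (limma adjusted p = 3.21e-06 and 7.08e-07). Sdhb, Sdhc and Sdhd differed by 1.88, 1.80 and 1.51, and the groups overlapped in none of these 6 genes. The F1 subunits Atp5d and Atp5c1 differed by 1.501 ± 0.14 and 1.35 ± 0.16 (limma adjusted p = 7.66e-06 and 4.09e-05). The coactivator gene Ppargc1a was also higher in healthy kidney, by 3.82 ± 0.38 (limma adjusted p = 1.02e-05). The mitochondrially encoded CYTB was at 14.72, 14.77 and 14.69 in the healthy kidneys and 14.75, 14.58 and 14.66 in the healthy lungs (difference 0.06 ± 0.11, limma adjusted p = 0.648), and 2 of the 7 mitochondrially encoded genes, ND4L and ND5, were higher in kidney.

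The 4 genes that were lower in healthy kidney were tissue isoforms of complex IV. Cox4i2 was at 4.47, 4.66 and 4.63 in the healthy kidneys, not above background, and at least 19.8-fold lower there than in the healthy lungs (limma adjusted p = 1.44e-08). Cox6a2 was at 6.43, 6.98 and 6.03 in the healthy kidneys and 12.11, 12.85 and 9.62 in the healthy lungs, a difference of -5.05 ± 0.69 (limma adjusted p = 9.52e-05). Cox8b differed by -3.89 ± 0.66 and Cox6b2 by -1.77 ± 0.27 (limma adjusted p = 0.000471 and 0.000239). Cox7a1 was at 10.01, 10.07 and 10.01 in the healthy kidneys, within the healthy lungs' values of 10.78, 11.76 and 7.98 (difference -0.14 ± 0.79, limma adjusted p = 0.888). That value turned on single lungs: Cox7a1 differed by -1.24 without healthy lung 3 (limma adjusted p = 0.038) and by 0.65 without healthy lung 2 (limma adjusted p = 0.472). The cardiac genes summed to 8.23 to 8.41 in the healthy kidneys, with 6 of 7 not above background, and to 10.20 to 15.93 in the healthy lungs, and their part in the Cox6a2 and Cox8b differences was not tested. Without healthy lung 2, the healthy lung highest in muscle transcripts, Cox6a2 and Cox8b differed by -4.39 and -3.14, and both stayed past the threshold. Cox6c, Ndufa7 and Uqcrfs1 did not pass either (0.17, 0.33 and 0.11).

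**Figure D5:**
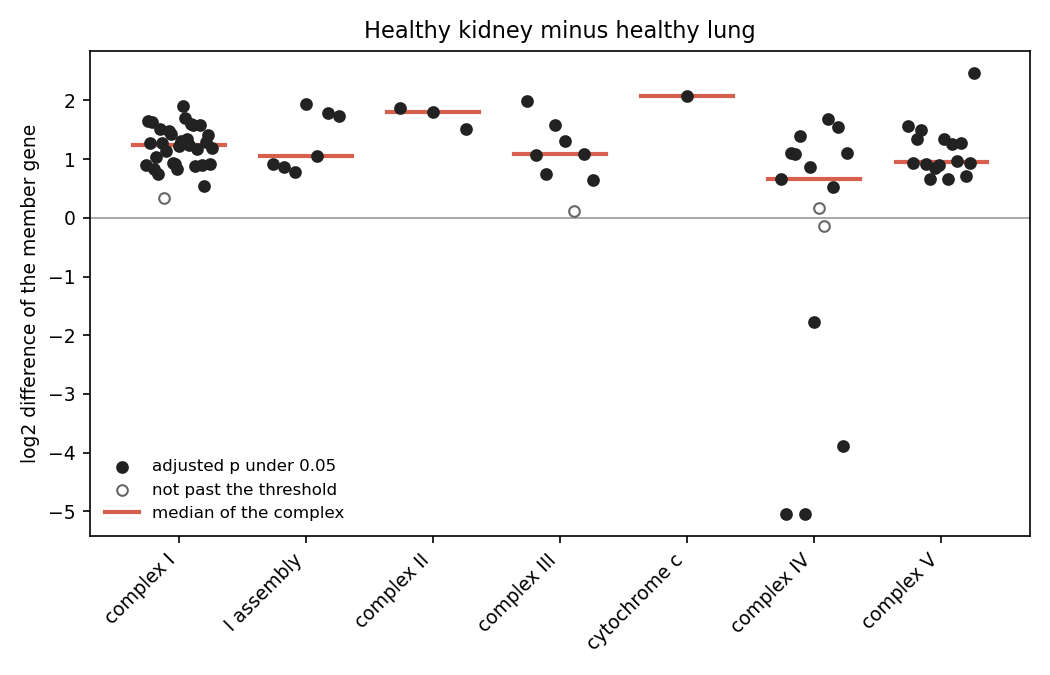
Log2 difference of each gene, healthy kidney minus healthy lung (y axis), by respiratory complex (x axis). Filled points passed the limma threshold and open points did not; red lines are medians, 0.66 to 1.80 over complexes I to V, and the 4 filled points below 0 are the complex IV isoforms Cox4i2, Cox6a2, Cox8b and Cox6b2.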

How the data were processed

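Illumina bead arrays of whole tissue were used, with RNA extracted in Trizol, per the labels' protocols. The authors deposited, for 45281 probes, the raw intensity together with its detection p-value, and processed intensities as well, which served as an alternative. Processed intensities below 16 were first raised to 16. Before this their median over all probes was 10.6 to 10.9 in the healthy and 16.4 to 24.7 in the bleomycin lungs. In the kidneys it was 23.4 to 28.8 in the healthy and 16.2 and 16.8 in the obstructed ones. GenomeStudio 5.0 is named in the submitters' processing notes. Slide and scan date are not known here. Raw intensities were background-corrected and quantile-normalised with neqc (limma 3.58.1, R 4.3.3), taking the negative controls' spread from the detection column, and adding 16 as offset. Probes above background on at least 2 arrays and with 1 symbol in the platform annotation were kept, 20641 in all, and the brightest stood for its gene. A linear model with 4 group means over 11 arrays was fitted with lmFit and eBayes, and adjusted by Benjamini-Hochberg. It was tested on simulated data. Where a group was below background throughout, a fold is a lower bound, from the dimmest detected probes. The members and gene lists were chosen with earlier results of these data known, and the genes named were complex II, Cycs, Cyc1, the tissue isoforms, the smallest and largest p in each complex and comparison, and genes or probes against their complex; any others were named after their values were seen. The titles give the healthy kidneys and lungs the same mice, and the deviations of same-mouse arrays from their group means correlated at 0.014, -0.07 and -0.113. Nothing else says how arrays relate, so p-values measure the spread between these arrays. The number of arrays limits precision. Alternatives covered scaling, background, filter, probe choice, the replicate block and leaving out each array.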

Additional observations from a re-analysis of the deposited data

Results flagged for a closer look

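The obstruction and bleomycin changes were compared gene by gene in a limma interaction, as the kidney change minus the lung change on the log2 scale. The adjusted p was under 0.05, with the kidney change the lower, for 30 of the 84 genes, and with the kidney change the higher for 4. Of all genes 40.0% differed, 16.2% with the lower and 23.9% with the higher kidney change, and in the authors' processed intensities the counts over the 84 genes were 72 and 2. The obstructed arrays were 2 and the arrays of every other group 3, so each difference rests on 11 arrays.

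In complex I the differences were -1.55 for Ndufb6, -1.48 for Ndufc2, -1.47 for Ndufs4, -1.30 for Ndufa11 and -1.16 for Ndufa12. They were -0.92 for Ndufa9, -0.90 for Ndufc1, -0.88 for Ndufb7 and -0.82 for Ndufa6, and the assembly factor Ndufaf4 stood at -2.18 with its brighter probe and -0.43 with its other one. The dimmer Ndufb6 probe differed by -0.72, that of Ndufc1 by 0.05 and that of Ndufc2 by 0.16, and the other 3 Ndufs4 probes by -0.10, -0.56 and 0.18, none past the threshold. In complex II, Sdhb and Sdhd differed by -1.19 and -0.96. Cycs differed by -1.60, and in complex III Cyc1, Uqcrh and Uqcrc2 differed by -0.76, -0.76 and -0.73.

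In complex IV, Cox6a1 and Cox7a2l differed by -1.18 and -1.06, while Cox8b, Cox4i2 and Cox6b2 had higher kidney changes, by 3.06, 2.70 and 2.41. In complex V, Atp5k, Atp5pb, Atp5l and Atp5j differed by -3.69, -3.14, -1.04 and -0.85. The value of Atp5k rests on signals near background in the healthy lungs, that of Cox4i2 on signals not above background in the healthy kidneys, and that of Cox8b on healthy lungs that differed in muscle transcripts.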

How the results depend on the processing

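The limits are the 2 obstructed kidneys, which differed from each other, the healthy lungs that differed in liver and muscle transcripts, and sex-linked transcripts that separated the obstructed from the healthy kidneys. Scaling sets the counts: the median change of all genes was 0.10 in kidney and -0.03 in lung after quantile normalisation, 0.27 and 0.20 after scaling to a common median, and -0.24 and 0.48 in the authors' processed intensities. Relative to all genes, the median of the 84 was -0.43, -0.52 and -0.58 in kidney and 0.13, 0.25 and 0.20 in lung under these settings in the same order. The share of all calls that were higher was 59.8%, 77.1% and 32.0% in kidney, 50.1%, 75.8% and 87.9% in lung, 59.6%, 55.7% and 14.3% for the difference of changes and 45.7%, 37.2% and 67.6% between the healthy organs.

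With scaling to a common median, 15 genes fell in kidney, 33 rose and 1 fell in lung (median 0.45), and the median difference of changes was -0.67. In the authors' processed intensities, 59 fell in kidney (median -0.82), 54 rose and 1 fell in lung (median 0.68), the kidney change was lower for 72 and higher for 2 (median -1.48), and the median organ difference was 1.84. With no filter on dim probes the kidney change was higher for 2 genes, and with the kidney arrays alone 13 fell. Leaving out 1 array gave 9 to 42 falls and 1 to 3 rises in kidney (median -0.595 to -0.0445), and 12 to 20 rises and 3 to 9 falls in lung (0.03 to 0.19). For the difference of changes the median was -0.68 to -0.17. Between the healthy organs 72 to 77 genes were higher and 4 or 5 lower (median 1.04 to 1.20). The shares of all genes called in these fits are not given here. Ndufs7 in lung was reversed in the authors' processed intensities, at 0.14, which is -0.34 relative to the median of all genes there. The cause was not tested for these. Treating the mouse as a replicate block for the paired healthy organs (correlation -0.0254) left the counts at 27 lower and 1 higher in kidney, 17 higher and 7 lower in lung, 30 lower and 4 higher for the difference and 76 higher and 4 lower between organs. Of the 226 alternative counts and medians 189 stayed within the limits set, and no median changed direction. Counts were not examined for a change of direction. Some medians could not move, since leaving out an array of 1 organ leaves the change in the other organ as it was. Of 3709 alternative values of single genes, 3455 kept their side of the threshold, 135 lost a call and 118 gained one. The 3455 include values that changed direction without passing the threshold in either setting.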
